A study of Homo sapiens with 12 samples.

Results

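THP1 monocytes, a human leukaemia cell line, carried far more inflammatory transcript in the libraries numbered 3 or 5 than in those numbered 1, whatever cells they had been cultured with. The comparison takes 8 of the 12 sequenced libraries, the 4 numbered 1 and the 4 numbered 3 or 5, and sets them against each other within each culture group. It was chosen by the values of IL1B, CXCL8 and other inflammatory genes in these libraries, so the differences in gene levels between these numbers are given as a description. Calls made between the numbers below set a difference against the spread of the fit and are no evidence for it, since the choice had already used it. Tests are kept for library properties and for contrasts that the choice did not use. The labels do not say what a replicate number marks, so spread between numbers may be technical or biological, and p-values below measure only the spread between these libraries.

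There were 4 culture groups of 3 libraries each. In mono-culture, THP1 cells were kept for 24 h in endothelial cell medium with no endothelial cells. In the other 3 groups they sat for 24 h in transwell inserts above human umbilical vein endothelial cells (ECs), which were DMSO-treated control ECs, ECs made senescent with the topoisomerase poison etoposide (senECs), or senECs also given the green tea catechin EGCG (EGCG-treated senECs). THP1 cells of all 12 libraries were labelled wild type and were then removed and given 100 ng/ml lipopolysaccharide (LPS) for 2 h, so no unstimulated library was analysed here and a resting level cannot be told apart from an induced one. Mono-culture and control ECs carry the numbers 1, 2 and 3, whereas both senEC groups carry 1, 2 and 5, so 3 and 5 cannot be told apart from the groups that hold them.

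LPS is sensed by a complex of CD14, MD-2 (encoded by LY96) and the receptor TLR4. Adaptors at the cell membrane pass the signal to NF-κB and the MAP kinases, which within minutes to hours switch on cytokine, chemokine and feedback inhibitor genes, while a second adaptor arm leads to interferon and its target genes. In bulk RNA, fewer cells of one type and less transcript per cell cannot be told apart.

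The promoters of 2 chemokine genes whose transcripts followed the replicate number are shown because they carry short stretches of the kind NF-κB and AP-1 bind. Both windows run from 250 bases before to 50 bases after the RefSeq start on GRCh38.p14 and are written 5′ to 3′, with matched motifs in capitals. CXCL8 lies at chr4:73740319-73740618 on the plus strand, and its capitals mark an AP-1 match beginning at -137 and a kappa B-like match beginning at -91, counted from the start as 0. CCL20 lies at chr2:227813592-227813891 on the plus strand, and its capitals mark a kappa B-like match beginning at -79 that reads as the motif on the opposite strand.
CXCL8: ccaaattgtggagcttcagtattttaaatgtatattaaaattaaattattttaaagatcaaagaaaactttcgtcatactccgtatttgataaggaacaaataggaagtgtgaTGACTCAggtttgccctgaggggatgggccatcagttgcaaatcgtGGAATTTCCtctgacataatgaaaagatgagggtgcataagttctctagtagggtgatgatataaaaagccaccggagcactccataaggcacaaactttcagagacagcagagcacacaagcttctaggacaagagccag
CCL20: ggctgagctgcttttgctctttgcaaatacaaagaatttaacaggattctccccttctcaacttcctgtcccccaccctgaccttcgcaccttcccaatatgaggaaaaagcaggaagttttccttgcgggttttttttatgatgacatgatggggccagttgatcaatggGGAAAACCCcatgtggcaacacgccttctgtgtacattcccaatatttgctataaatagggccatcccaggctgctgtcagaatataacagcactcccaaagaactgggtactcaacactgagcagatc

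The motifs searched on both strands were GGNNNTTCC (kappa B-like), TGANTCA (AP-1) and an interferon response element-like pair of GAAA separated by 2 bases, none of which overlaps another in these windows. The IL1B window held none of these letters. Among 35116 RefSeq promoters of the same length, 20.1% held the kappa B-like motif, 7.71% the AP-1 motif and 3.57% the interferon response element-like motif. Among the 8402 genes with a promoter entry and a mean of at least 5 CPM over the 8 libraries, the shares were 29.7%, 6.56% and 3.93%. A kappa B-like match was present in 66.7% of 12 chemokine promoters and 72.7% of 22 promoters of NF-κB subunits and inhibitors, but in 37.5% of 16 cytokine, 27.6% of 29 immediate early and 26.3% of 19 receptor and adaptor promoters, and in 1 of the 8 promoters found for the 10 genes with the largest differences. The interferon response element-like motif was present in 70.6% of 34 promoters of interferon-stimulated genes. Such a match is a run of letters and not a measured binding site.

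The libraries held 15439836 to 22092600 counts, and replicates of a group differed by more than sampling noise (chi-square per degree of freedom 10.3 to 38.2). The mitochondrial rRNA share of 1.12% in control ECs replicate 2 stood apart from 0.23% to 0.434% elsewhere. Of the properties compared within groups by an exact two-sided sign-flip permutation test, whose smallest possible p is 0.13, the cytosolic ribosome share (4.44% to 4.79% against 4.80% to 6.34%) and the share of the 100 most abundant genes (17.8% to 18.3% against 18.5% to 20.2%) were higher in the replicate 3 or 5 library of all 4 groups (p = 0.13 each), whereas total counts did not separate the numbers (p = 0.625). The mitochondrial rRNA share was lower in all 4 groups (0.341% to 0.364% against 0.23% to 0.317%, exact permutation p = 0.13). The whole mitochondrial share (exact permutation p = 0.25) and the genes with a count (exact permutation p = 0.5) did not separate the numbers. Genes with a count were fewest in the number 5 libraries, at 23418 in senECs and 22512 in EGCG-treated senECs. The number 3 libraries of mono-culture and control ECs had 25460 and 25705. The TMM factor, which scales a library for composition, was lower in all 4 groups (exact permutation p = 0.13) and lowest in senECs replicate 5 at 0.912. The part of these properties in the differences below was not tested.

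Defining markers of the monocytic line were present in every library, among them SPI1, CD14 and TYROBP, but CD68 had only 2 to 16 counts. CPM are counts scaled to a common library size, for the marker sums of this paragraph by raw total counts. The 9 monocytic markers summed to 795 to 895 CPM in the replicate 1 libraries, 904 to 1050 in replicate 2 and 982 to 1260 in replicate 3 or 5. The 9 endothelial markers of narrow expression summed to 2.08 to 3.95, 2.97 to 5.61 and 2.92 to 5.82 CPM in the same order, and CDH5, the defining cadherin of endothelium, and EMCN had no count in 10 of the 12 libraries.

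Principal components set the replicate 1 libraries apart along the first axis, which held 40.1% of the variance of 10832 genes at a mean of 5 CPM or more. Replicate 1 libraries scored -19.2 to -9.08, replicate 2 libraries -5.71 to 7.13, and replicate 3 or 5 libraries 0.768 to 27.0. Replicate 1 overlapped neither of the others, whereas replicate 2 and replicate 3 or 5 overlapped, and senECs replicate 5 lay at the far end. At each number both senEC groups scored above mono-culture and control ECs, so this axis went with the culture group as well. For the median gene, 27.3% of the sum of squares of log2(CPM + 2) went with the number, 29.5% with the culture group and 34.1% with neither, and the number held more than the culture group in 47.0% of genes. The culture group has more levels than the number, so noise alone gives it the larger share. These raw shares therefore do not rank the number against the culture group.

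**Figure D1:**
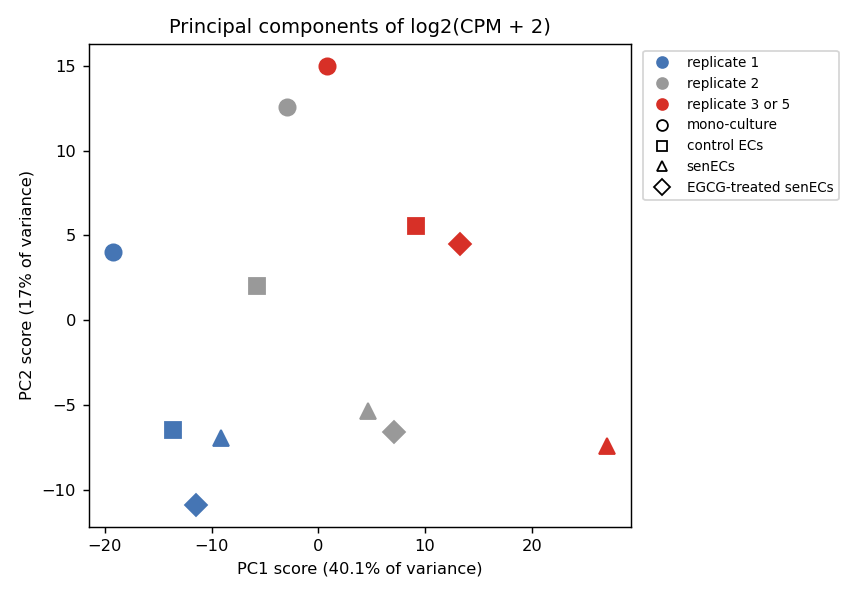
Scores of the 12 libraries on the first and second principal components of log2(CPM + 2); colour gives the replicate number and shape the culture group. The 4 replicate 1 libraries lie left of -9 on the first component, and all 4 replicate 3 or 5 libraries lie right of 0.

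IL1B encodes interleukin-1β, a cytokine made as a precursor and cut by inflammasome caspases. The gene (ENSG00000125538.11) lies on the minus strand of chromosome 2 at 112829751 to 112836903 in GENCODE 29 on GRCh38. In mono-culture, control ECs, senECs and EGCG-treated senECs, the order kept below, it stood at 131, 142, 172 and 156 CPM in replicate 1, at 270, 231, 235 and 260 CPM in replicate 2, and at 611, 672, 866 and 747 CPM in replicate 3 or 5. The lowest replicate 3 or 5 library thus held over 3 times the highest replicate 1 library, and the numbers did not overlap. The fitted log2 fold change of replicate 3 or 5 over replicate 1 was 2.26 (SE 0.08), a 4.80-fold difference. Within the groups the log2(CPM + 2) difference was 2.21, 2.22, 2.32 and 2.24, a mean of 2.25 ± 0.05 (SD, n = 4 groups). The number held 97.6% of this gene's spread and the culture group 1.07%.

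CXCL8 encodes interleukin-8, which draws in neutrophils. The gene (ENSG00000169429.10) lies on the plus strand of chromosome 4 at 73740506 to 73743716. It stood at 280, 243, 276 and 251 CPM in replicate 1, at 569, 406, 432 and 408 CPM in replicate 2, and at 613, 704, 931 and 771 CPM in replicate 3 or 5. Every replicate 3 or 5 library lay above every other library, by least in mono-culture, where replicate 2 came close. The fitted log2 fold change was 1.51 (SE 0.07), with within-group differences of 1.12, 1.53, 1.74 and 1.61 (mean 1.5 ± 0.27, SD, n = 4 groups).

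**Figure D2:**
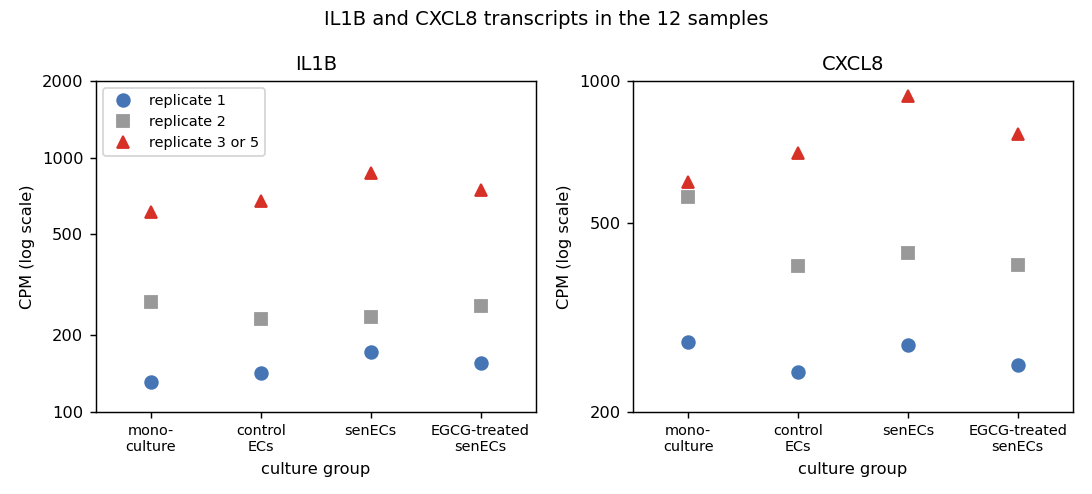
CPM of IL1B and CXCL8 in the 12 libraries on log axes, by culture group; circles are replicate 1, squares replicate 2 and triangles replicate 3 or 5. In all 4 groups the triangle is highest and the circle lowest, and IL1B runs from 131 to 172 CPM in circles and from 611 to 866 CPM in triangles.

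Across the transcriptome, 25873 genes whose counts summed to 10 or more over the 12 libraries were fitted. A total of 445 genes sat just inside that limit with exactly 10 counts, and 491 just outside with exactly 9. In edgeR's quasi-likelihood fit with the culture group as block, 1654 genes (6.39%) were called higher in replicate 3 or 5 at a Benjamini-Hochberg adjusted p under 0.05, and 1171 (4.53%) lower. With libraries scaled to total counts alone, the split was 1159 higher and 2229 lower. The 2825 calls became 1728 without control ECs replicate 1 and 1725 without control ECs replicate 3. Each culture group holds 1 library of either number here. Leaving out 1 therefore leaves its partner without a comparison, and such a fit in effect drops the pair. Among 10847 genes at a mean of at least 5 CPM over the 8 libraries, 13.0% were called higher, 9.00% lower, and 11.7% were higher without overlap of the 8 libraries. Of all called genes, 309 were at least 2-fold higher and 100 at least 2-fold lower. The lists below were chosen with earlier results known, and their counts stand beside these shares as a description. IL18, CD14, CXCL10, PGK1, GAPDH, SDHA, RPLP0 and SLC7A11 were held by 2 lists each.

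The genes whose pattern was most like that of IL1B, by Pearson r of log2(CPM + 2) over the 12 libraries after removal of culture group means, were TRAF1 (0.996), WTAP (0.995), CCL4L2 (0.995), BTG2 (0.995) and ZNF697 (0.995). TRAF1, an adaptor of the TNF receptor family, stood at 16.7, 19.6, 24.8 and 23.3 CPM in replicate 1 and at 79.5, 93.4, 101 and 98.7 CPM in replicate 3 or 5. WTAP, a subunit of the RNA adenosine methyltransferase, stood at 214, 232, 267 and 241 CPM and at 395, 451, 501 and 470 CPM in the same libraries. In every group both were lowest in replicate 1, intermediate in replicate 2 and highest in replicate 3 or 5. CCL4L2 shares reads with its near-identical copy CCL4, so its count is uncertain.

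Of the receptor complex and its adaptors, 8 of 22 genes were called higher and none lower, with a median log2 fold change of 0.18. TLR4, the signalling receptor, stood at 27.3, 22.7, 29 and 21.1 CPM in replicate 1 and at 33.4, 47.2, 48.5 and 55.3 CPM in replicate 3 or 5, a fitted log2 fold change of 0.87 (SE 0.10). CD14, which hands LPS to TLR4, stood at 5.91, 12.4, 16.6 and 12.8 CPM and at 11.0, 26.2, 65.7 and 41.6 CPM, a log2 fold change of 1.47 (SE 0.11). The CD14 ranges overlapped, mono-culture was lowest at every number, and 56.5% of its spread went with the culture group. LY96 was nearly absent, at 0.048 to 0.258 CPM in replicate 1 and 0.275 to 2.05 CPM in replicate 3 or 5, and was not called. IRAK2, a kinase that prolongs the signal, stood at 14.2, 16.8, 18.8 and 19.0 CPM and at 50.1, 41.5, 43.0 and 45.6 CPM, a log2 fold change of 1.39 (SE 0.10).

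Of 23 cytokine genes tested from a list of 24, 13 were called higher and none lower, with a median log2 fold change of 1.21, or 1.16 with IL36G, which had no count in replicate 1, at a floor of 3 counts per library. Within the groups the median log2(CPM + 2) difference was only 0.38, 0.44, 0.66 and 0.44, on a scale where genes of few counts weigh less. IL1A, which encodes the sister cytokine of IL-1β, stood at 5.78, 6.24, 7.02 and 8.83 CPM in replicate 1 and at 48.4, 39.3, 37.0 and 38.5 CPM in replicate 3 or 5, a fitted log2 fold change of 2.55 (SE 0.12). IL10, an anti-inflammatory cytokine, stood at 1.12, 1.82, 3.72 and 2.38 CPM and at 4.35, 9.45, 12.2 and 10.7 CPM, with a log2 fold change of 2.04 (SE 0.19). IL1RN, the antagonist of the IL-1 receptor, went from 5.91 to 7.43 CPM in replicate 1 to 7.44 to 16 CPM in replicate 3 or 5, a log2 fold change of 0.93 (SE 0.14). So both inflammatory and anti-inflammatory members were higher. TNF, an early cytokine of the response, stood at 60.9, 65.7, 64.9 and 68.0 CPM and at 143, 107, 105 and 93.2 CPM, a smaller log2 fold change of 0.77 (SE 0.08). IL6 stayed under 1 CPM in every library and was not called.

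Of 18 chemokine genes tested from a list of 24, 14 were called higher and none lower, with a median log2 fold change of 1.17, and 15 did not overlap between the numbers. CCL20, which attracts CCR6-bearing lymphocytes and whose promoter is printed above, stood at 119, 152, 178 and 161 CPM in replicate 1, at 315, 275, 325 and 339 CPM in replicate 2, and at 410, 513, 893 and 654 CPM in replicate 3 or 5. Its fitted log2 fold change was 1.98 (SE 0.08). CCL3 and CCL4 encode the macrophage inflammatory proteins. CCL4 stood at 33.3, 45.7, 47.7 and 44.7 CPM in replicate 1 and at 112, 137, 189 and 146 CPM in replicate 3 or 5, a log2 fold change of 1.76 (SE 0.08), and CCL3 differed by 1.88 (SE 0.12). CCL2, which draws in monocytes, stood at 8.14, 6.76, 8.31 and 5.12 CPM and at 16, 25.3, 39.6 and 33.5 CPM, a log2 fold change of 1.96 (SE 0.12). CXCL2, another neutrophil chemokine, went from 10.6 to 17.5 CPM in replicate 1 to 23.9 to 36.3 CPM in replicate 3 or 5, a log2 fold change of 1.07 (SE 0.11).

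The NF-κB list, with subunits and the inhibitors that NF-κB itself induces, had 16 of 25 genes called higher, none lower and a median log2 fold change of 0.36. Its members were abundant at every number. NFKB1, which encodes the p105 precursor of p50, stood at 147, 167, 187 and 176 CPM in replicate 1 and at 274, 285, 330 and 354 CPM in replicate 3 or 5, a log2 fold change of 0.87 (SE 0.08). NFKBIA, the inhibitor IκBα, stood at 425, 508, 521 and 516 CPM and at 522, 649, 754 and 608 CPM, a log2 fold change of 0.35 (SE 0.07). TNFAIP3, the ubiquitin-editing inhibitor A20, went from 875 to 1000 CPM in replicate 1 to 1410 to 1560 CPM in replicate 3 or 5, with a log2 fold change of 0.64 (SE 0.07). NFKBIZ, a nuclear cofactor of NF-κB, differed by 0.65 (SE 0.08) and TNIP3, a partner of A20, by 2.01 (SE 0.13).

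Immediate early genes, which encode transcription factors and MAP kinase phosphatases made without new protein synthesis, had 27 of 37 called higher, 1 lower and a median log2 fold change of 0.55. NR4A3, an orphan nuclear receptor, stood at 4.29, 5.76, 6.50 and 4.51 CPM in replicate 1 and at 16.7, 17.8, 16.6 and 18.9 CPM in replicate 3 or 5, a log2 fold change of 1.74 (SE 0.14). DUSP1, the phosphatase that switches off p38 and JNK, stood at 4.29, 5.95, 7.79 and 6.09 CPM and at 10.7, 14.6, 21.0 and 21.4 CPM, a log2 fold change of 1.47 (SE 0.14). EGR1 differed by 0.99 (SE 0.09), JUN by 0.65 (SE 0.08) and FOS by 0.37 (SE 0.09), without overlap for each. ZFP36, which encodes an mRNA decay factor, was not called, at -0.08 (SE 0.08). MYC was the member called lower, at 54.3 to 61.5 CPM in replicate 1 and 38.8 to 53.7 CPM in replicate 3 or 5.

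Other effectors of the LPS response had 27 of 34 tested genes called higher, none lower and a median log2 fold change of 1.12. PTGS2, the inducible cyclooxygenase of prostaglandin synthesis, stood at 18.2, 13.9, 19.5 and 14.4 CPM in replicate 1, at 36.2, 33.3, 30.5 and 25.2 CPM in replicate 2, and at 62.7, 81.4, 80.4 and 82.5 CPM in replicate 3 or 5. Its log2 fold change was 2.22 (SE 0.10). SOD2, the mitochondrial superoxide dismutase, stood at 631, 761, 963 and 868 CPM in replicate 1 and at 1890, 2270, 2530 and 2650 CPM in replicate 3 or 5, a log2 fold change of 1.54 (SE 0.07). ICAM1, the adhesion molecule bound by leukocyte integrins, differed by 1.21 (SE 0.08) and PLAUR, the urokinase receptor, by 1.00 (SE 0.08). MMP9, a gelatinase, went from 1.18 to 1.71 CPM to 3.53 to 14.9 CPM, and ACOD1, which makes itaconate, from 1.15 to 2.38 CPM to 7.66 to 9.19 CPM.

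**Figure D3:**
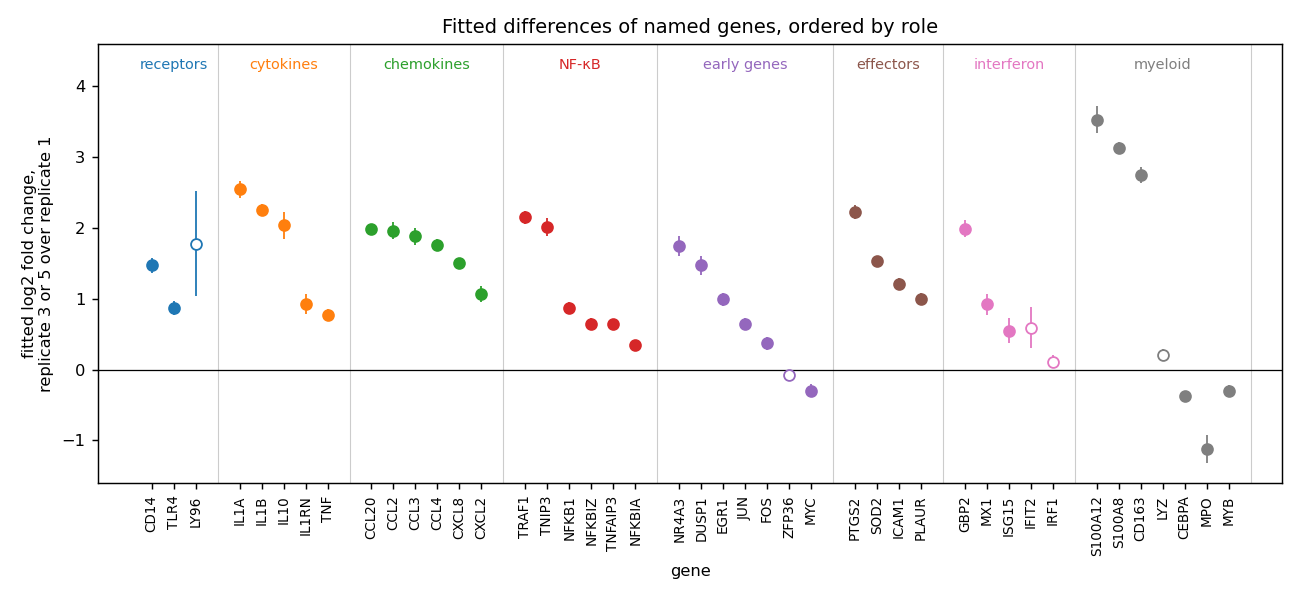
Fitted log2 fold change of replicate 3 or 5 over replicate 1 for named genes in 8 roles, with bars of 1 SE; filled points were called and hollow points were not. Cytokines and chemokines lie between 0.77 and 2.55, S100A12 is highest at 3.53 and MPO lowest at -1.12.

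Of 45 interferon-stimulated genes, 23 were called higher and none lower, with a median log2 fold change of 0.59. The within-group median difference was 0.20, 0.29, 0.22 and 0.66, so EGCG-treated senECs held the largest. MX1, an antiviral GTPase, stood at 4.66, 5.52, 8.05 and 5.85 CPM in replicate 1 and at 5.23, 10.2, 9.07 and 28.1 CPM in replicate 3 or 5. The 28.1 CPM of EGCG-treated senECs replicate 5 stood above the other 11 libraries, and the ranges of the 2 numbers overlapped. GBP2, a guanylate-binding protein, stood at 7.34, 6.62, 7.85 and 7.19 CPM and at 23.5, 26.7, 34.6 and 30.9 CPM, a log2 fold change of 1.99 (SE 0.12) without overlap. ISG15, a ubiquitin-like modifier, differed by 0.55 (SE 0.18), and IFIT2 (0.59, SE 0.29) and the transcription factor IRF1 (0.11, SE 0.09) were not called. The list median was 0.37 without EGCG-treated senECs replicate 1 and 0.38 without EGCG-treated senECs replicate 5.

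Of 16 inflammasome genes, 6 were called higher and none lower, with a median of 0.35 that was 0.21 without senECs replicate 1 and 0.19 without senECs replicate 5. NLRP3, the sensor, stood at 133, 118, 120 and 123 CPM in replicate 1 and at 129, 130, 134 and 131 CPM in replicate 3 or 5, and was not called. CASP1, which cuts pro-IL-1β, went from 45.2 to 51.7 CPM to 60.7 to 76.2 CPM, a log2 fold change of 0.45 (SE 0.09), and NINJ1, which ruptures the membrane of dying cells, differed by 1.09 (SE 0.08).

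The plot of list medians sets these groups of genes beside others. A positive median within each of the 4 groups was found in 17 of the 24 lists, among them effectors, chemokines, early genes, cytokines and NF-κB genes but also reference genes, ribosome, respiratory chain, glycolysis and p53 targets, whereas the median of all genes at 5 CPM or more lay between -0.01 and 0.04.

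**Figure D4:**
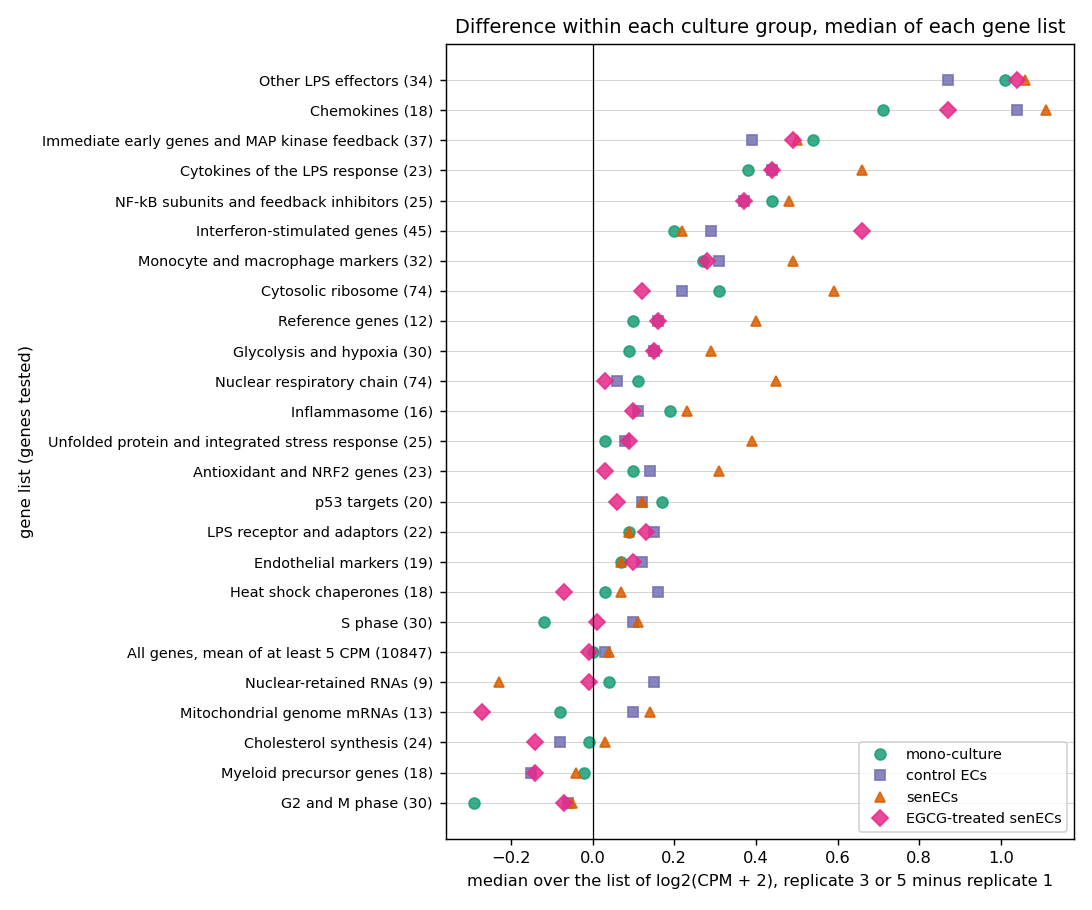
Median over each gene list of the within-group difference in log2(CPM + 2), replicate 3 or 5 minus replicate 1, for the 4 culture groups; the number of genes tested stands beside each list. Effector and chemokine medians run from 0.71 to 1.11, and the interferon-stimulated list stands at 0.66 in EGCG-treated senECs against 0.20 to 0.29 in the other groups.

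Monocyte and macrophage markers had 17 of 32 called higher, 2 lower and a median of 0.51. S100A8 and S100A12, calgranulins that bind calcium in the myeloid cytosol, were among the largest differences of this list. S100A8 stood at 8.89, 27.5, 33.7 and 24.8 CPM in replicate 1, at 16.3, 41.2, 77.9 and 67.2 CPM in replicate 2, and at 53.7, 190, 521 and 200 CPM in replicate 3 or 5, a fitted log2 fold change of 3.13 (SE 0.09). S100A12 went from 0.684 to 1.82 CPM to 4.57 to 31.6 CPM, a log2 fold change of 3.53 (SE 0.19). For both genes mono-culture was low and senECs replicate 5 highest. CD163, the haemoglobin scavenger receptor, stood at 5.28, 8.97, 11.5 and 10.1 CPM and at 21.9, 54.1, 89.8 and 91.1 CPM, a log2 fold change of 2.75 (SE 0.11). CSF1R, the receptor of macrophage colony-stimulating factor, differed by 0.58 (SE 0.09). Lower were CEBPA, a myeloid transcription factor, at 228 to 272 CPM in replicate 1 and 171 to 207 CPM in replicate 3 or 5, and CCR2, the receptor for CCL2, at 140 to 171 CPM and 113 to 125 CPM. Genes of immature myeloid cells had 3 of 18 called higher, 5 lower and a median of -0.11, or -0.06 without control ECs replicate 1 or 3. MPO, myeloperoxidase of the primary granules, stood at 5.60, 5.23, 5.68 and 6.27 CPM and at 3.19, 2.72, 2.66 and 1.93 CPM, a log2 fold change of -1.12 (SE 0.20). The proteinase PRTN3 (-0.36, SE 0.07) and the progenitor factor MYB (-0.30, SE 0.08) were lower as well, whereas ELANE, neutrophil elastase, was not called (0.14, SE 0.07).

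The 10 genes highest by fitted fold change, among called genes with a mean of 5 CPM or more and the same direction in all groups, were IL7R (3.66), S100A12, S100A8, CD163, CR1 (2.72), NPTX1 (2.67), IL1A, MMP9 (2.46), IL1B and ACOD1 (2.25). IL7R, the interleukin-7 receptor chain, stood at 1.06, 2.35, 2.58 and 3.59 CPM in replicate 1, at 2.96, 6.63, 13.2 and 10.8 CPM in replicate 2, and at 8.04, 27.5, 43.3 and 46.3 CPM in replicate 3 or 5. CR1, the receptor for complement C3b, went from 4.48 to 10.2 CPM to 18.1 to 60.1 CPM, and NPTX1, a secreted pentraxin, from 3.25 to 4.27 CPM to 16.8 to 26.8 CPM. None of these 10 genes overlapped between the numbers, where 11.7% of all genes at that mean were higher without overlap. They were picked by size and direction in the same libraries, so the lack of overlap adds no evidence. The 10 genes lowest by the same rule differed by less, and 6 of them are described here. SYTL1, a synaptotagmin-like vesicle protein, stood at 15.6, 12.6, 10.6 and 14.0 CPM in replicate 1 and at 8.21, 5.61, 4.17 and 6.05 CPM in replicate 3 or 5, a log2 fold change of -1.15 (SE 0.15). COL9A3, a collagen chain, differed by -1.07 (SE 0.19), RCOR2, a corepressor, by -1.06 (SE 0.18), PDK4, a kinase that restrains pyruvate dehydrogenase, by -1.0 (SE 0.13), and TBX1, a T-box factor, by -0.97 (SE 0.17). ONECUT2, a homeobox factor, stood at 80.3, 88.5, 68.7 and 73.1 CPM and at 45.8, 57.9, 22.6 and 41.7 CPM.

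Housekeeping groups also differed, with list medians in the range of the receptor, NF-κB and inflammasome lists. Of 74 cytosolic ribosome genes, 65 were called higher and none lower, with a median log2 fold change of 0.32 and within-group medians of 0.31, 0.22, 0.59 and 0.12. RPL21, of the large subunit, stood at 317, 321, 359 and 318 CPM in replicate 1 and at 429, 436, 620 and 374 CPM in replicate 3 or 5, a log2 fold change of 0.47 (SE 0.07), and RPS6, of the small subunit, differed by 0.36 (SE 0.07). The largest value in each case was that of senECs replicate 5, the library with the lowest TMM factor. The list median was 0.23 without senECs replicate 5 and also 0.23 without senECs replicate 1, since either fit leaves the senEC group without its comparison. Nuclear genes of the respiratory chain had 23 of 74 called higher and 1 lower (median 0.17, or 0.06 without senECs replicate 1 or 5), whereas of 13 mRNAs of the mitochondrial genome none was higher and 1 lower (median -0.04, of either sign without 1 library). MT-CO1, a cytochrome oxidase subunit, stood at 8010, 7840, 8340 and 8220 CPM and at 8410, 8510, 9930 and 7190 CPM. Of 12 reference genes, 8 were called higher and none lower (median 0.19). ACTB, β-actin, stood at 5560, 5220, 5370 and 5570 CPM and at 6140, 5830, 6540 and 6140 CPM, a log2 fold change of 0.18 (SE 0.06), B2M differed by 0.50 (SE 0.07), and TBP was not called (-0.09, SE 0.09).

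Genes of the G2 and M phases had none of 30 called higher and 5 lower (median -0.13, or -0.05 without mono-culture replicate 1 and -0.04 without mono-culture replicate 3). CENPE, a kinesin of the kinetochore, stood at 177, 162, 152 and 131 CPM in replicate 1 and at 89.1, 88.0, 131 and 50.2 CPM in replicate 3 or 5, a log2 fold change of -0.86 (SE 0.08) with ranges that met at 131 CPM. The proliferation marker MKI67 (-0.17, SE 0.07) and the kinase CDK1 (0.11, SE 0.08) were not called. S phase genes had 1 of 30 higher and 2 lower, cholesterol synthesis genes 2 of 24 higher and 3 lower, and heat shock chaperones 2 of 18 higher and 2 lower. In the glycolysis and hypoxia list 11 of 30 were higher and none lower, with SLC2A3, a glucose transporter, at 1.78 to 2.58 CPM and 2.59 to 5.26 CPM. Of 25 genes of the unfolded protein and integrated stress response, 8 were higher and none lower. Among them XBP1, which encodes its spliced transcription factor, went from 195 to 209 CPM to 284 to 319 CPM, a log2 fold change of 0.58 (SE 0.07), and DDIT3 was not called (0.14, SE 0.11). Of 20 p53 targets, 5 were higher and 1 lower, and the cell cycle inhibitor CDKN1A went from 40.3 to 46.0 CPM to 53.7 to 64.8 CPM. Of 23 antioxidant genes, 6 were higher and 1 lower, led by HMOX1, the enzyme that degrades haem, at 2.18, 3.55, 4.70 and 5.00 CPM and at 8.04, 9.95, 25.2 and 17.1 CPM. Of 9 RNAs kept in the nucleus, MALAT1 was lower and none was higher. The broader endothelial list, which summed to 462 to 483 CPM in replicate 1 and 514 to 533 CPM in replicate 3 or 5 and was mostly CD93 and ENG, both also made by myeloid cells, had 4 of 19 tested called higher and none lower (median 0.72, or 0.47 without mono-culture replicate 1 or 3). These were VWF, FLT1, CD93 and LYVE1, of which VWF stayed at 0.487 to 0.808 CPM and 0.967 to 2.20 CPM. Within the groups the median log2(CPM + 2) difference of this endothelial list was only 0.07, 0.12, 0.07 and 0.1.

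How the difference between numbers itself varied with the culture group had not been used to choose the comparison and was tested across all 25873 genes and all 12 libraries. The first test asked whether it was unequal between the senEC co-cultures and the pair of mono-culture and control ECs. In edgeR, 12 genes (0.0464%) passed a Benjamini-Hochberg adjusted p of 0.05, 6 in each direction, and 871 had an unadjusted p under 0.05. S100A8 differed more in the senEC co-cultures, by 0.83 (SE 0.18, adjusted p = 0.0118). Its within-group differences were 2.35 and 2.70 in mono-culture and control ECs against 3.88 and 2.92 in senECs and EGCG-treated senECs. S100A9, chosen after its values were seen, stood at 71.7, 156, 212 and 143 CPM in replicate 1 and at 206, 672, 1420 and 726 CPM in replicate 3 or 5, and differed more by 0.73 (SE 0.16, adjusted p = 0.0118). For neither inflammatory reference gene did the test pass, with 0.07 (SE 0.16, adjusted p = 1.0) for IL1B and 0.34 (SE 0.16, adjusted p = 1.0) for CXCL8.

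Several other genes of this test did not differ in 1 direction in all groups. XAGE1B, a cancer-testis antigen, stood at 15.2, 16.6, 8.72 and 10.7 CPM in replicate 1 and at 19.8, 9.23, 24.5 and 50.2 CPM in replicate 3 or 5 (2.04, SE 0.24, adjusted p = 3.56e-13). GPR89B, a regulator of Golgi pH, differed likewise by 1.49 (SE 0.24, adjusted p = 7.02e-06). The opposite held for STAG3L1 (-2.0, SE 0.25, adjusted p = 2.3e-11), CBSL (-3.58, SE 0.60, adjusted p = 1.68e-05), MAP1A, a microtubule-associated protein, and CAMKV, a kinase-like protein. XAGE1B, GPR89B, STAG3L1 and CBSL share reads with near-identical copies, so their counts are uncertain. The count of 12 genes was 192 without EGCG-treated senECs replicate 5 and 32 without senECs replicate 5. It was 1 in DESeq2, STAG3L1 (336 at unadjusted p under 0.05) and 0 in edgeR with at least 10 counts in every library (428 at unadjusted p under 0.05) or with the filterByExpr rule (592). With DESeq2, S100A8 and S100A9 had adjusted p = 1.0, and each was called in 7 of the 12 fits that left out 1 library. Both calls were lost without mono-culture replicate 1 or 3 and without senECs replicate 1 or 5, that of S100A8 also without control ECs replicate 1, and that of S100A9 also without EGCG-treated senECs replicate 1.

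The second test set the 3 co-cultures against mono-culture and passed 17 genes (0.0657%), 7 with a larger and 10 with a smaller or opposite difference in co-culture, with 671 at an unadjusted p under 0.05. CCL2 differed by 0.83 in mono-culture against 1.64, 2.01 and 2.32 in the co-cultures (1.29, SE 0.30, adjusted p = 0.0327 in edgeR). S100A9 differed more in co-culture as well (0.88, SE 0.18, adjusted p = 0.00372). CYP1B1, a cytochrome P450, stood at 93.6, 89.8, 91.5 and 84.1 CPM in replicate 1 and at 76.0, 144, 137 and 130 CPM in replicate 3 or 5 (0.93, SE 0.19, adjusted p = 0.00372). CYP1B1 was lower in mono-culture and higher in all 3 co-cultures. For every gene of this test, the mono-culture difference rests on 1 replicate 1 and 1 replicate 3 library and has no repeat. ABCA1, a cholesterol exporter chosen after its values were seen, differed by 0.78 more in co-culture (SE 0.18, adjusted p = 0.034), a call that DESeq2 did not make (adjusted p = 1.0) and that was lost without control ECs replicate 2 or 3, senECs replicate 2 or EGCG-treated senECs replicate 1 or 5. MAP1A (-1.71), CAMKV (-1.75) and STAG3L1 (-1.34) were called in this test too, which shares its libraries with the first. The CCL2 call was lost without senECs replicate 5 or EGCG-treated senECs replicate 1, and that of S100A9 without the latter. Only 1 gene was called without EGCG-treated senECs replicate 1, and DESeq2 called 2, of which CYP1B1 was 1 (adjusted p = 0.00457). No gene passed in edgeR with at least 10 counts in every library (377 at unadjusted p under 0.05) or with filterByExpr (482).

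The 4 replicate 2 libraries took no part in the choice of the comparison. Whether they lay midway between the other numbers was tested over all 12 libraries by the difference between replicate 2 and the midpoint of replicate 1 and replicate 3 or 5. In edgeR, 138 genes (0.533%) lay above the midpoint and 115 (0.444%) below, with 2420 at an unadjusted p under 0.05. The midpoint rests on the 8 libraries of the chosen comparison, so for genes of the LPS response the departure is given as a description. It was 0.03 (SE 0.07) for CXCL8, -0.39 (SE 0.07) for IL1B and -0.61 (SE 0.11) for IL1A on the log2 scale. TNF differed from these. Its replicate 2 values of 78.7, 59.9, 41.9 and 41.9 CPM were under those of replicate 1 in all 3 co-cultures, and its departure was -0.65 (SE 0.08). The list of cytokines had 4 genes called below the midpoint, IL1B, IL1A, TNF and OSM, and none above, with OSM called in 5 of the 12 fits that left out 1 library and not in DESeq2.

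Other members of the LPS response called below the midpoint were TRAF1 (-0.34, SE 0.08) and, among chemokines, CCL4L2 and CXCL3. So were EGR3, NR4A3, EGR1, FOSL2 and PPP1R15A among immediate early genes. Of the other effectors of the LPS response, PDE4B was called below (-0.32) and C3 above (0.25). These calls too are a description. EGR3, a zinc finger factor, stood at 9.88, 7.87, 5.63 and 5.00 CPM in replicate 1, at 8.67, 7.25, 4.40 and 3.56 CPM in replicate 2 and at 19.3, 14.8, 10.5 and 18.8 CPM in replicate 3 or 5, so its replicate 2 library was lowest in every group. FOSL2 was called in 2, PPP1R15A in 3, PDE4B in 9 and C3 in 7 of those 12 fits. Among the interferon-stimulated genes, IFI44L and IFI44 were called below, in 9 and 8 of the 12. OSM, CXCL3, EGR3, FOSL2, PPP1R15A, PDE4B, C3, IFI44L and IFI44 were named after their values were seen.

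LYZ, lysozyme of the monocyte granule, had the smallest p above the midpoint. It stood at 72.5, 67.5, 78.3 and 74.8 CPM in replicate 1, at 140, 122, 152 and 142 CPM in replicate 2, and at 78.1, 84.0, 95.4 and 82.9 CPM in replicate 3 or 5. All 4 replicate 2 libraries thus lay above all 8 others, by 0.82 over the midpoint (SE 0.06, adjusted p = 3.35e-16 in edgeR). Replicate 3 or 5 and replicate 1 differed by 0.21 (SE 0.08) and were not called. Of the same list of monocyte and macrophage markers, CD36, named after its values were seen, was also called above (0.34). S100A8 was called below (-0.52), though not in DESeq2, and its departure is given as a description. C1QC, a chain of complement C1q, was above by 1.39 (SE 0.22, adjusted p = 2.42e-05), with 2.42 to 5.15 CPM in replicate 2. In the unfolded protein list, 7 of 25 genes lay above and none below. HSPA5, the endoplasmic reticulum chaperone BiP, stood at 1440, 1410, 1400 and 1330 CPM in replicate 1, at 1760, 1810, 2060 and 2130 CPM in replicate 2, and at 1480, 1650, 1870 and 1670 CPM in replicate 3 or 5 (0.35 over the midpoint, SE 0.06, adjusted p = 0.000131). Replicate 2 was highest in every group. The lectin chaperone CALR (0.31) and the disulfide isomerase PDIA4 (0.39), named after their values were seen, lay above as well. ONECUT2 fell below by 0.67 (SE 0.08, adjusted p = 5.52e-08). MALAT1 lay above by 0.57 (SE 0.11, adjusted p = 0.000647), but 1300 CPM in control ECs replicate 2, the library with the high mitochondrial rRNA share, stood against 203 to 461 CPM elsewhere, and the call was lost without that library.

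**Figure D5:**
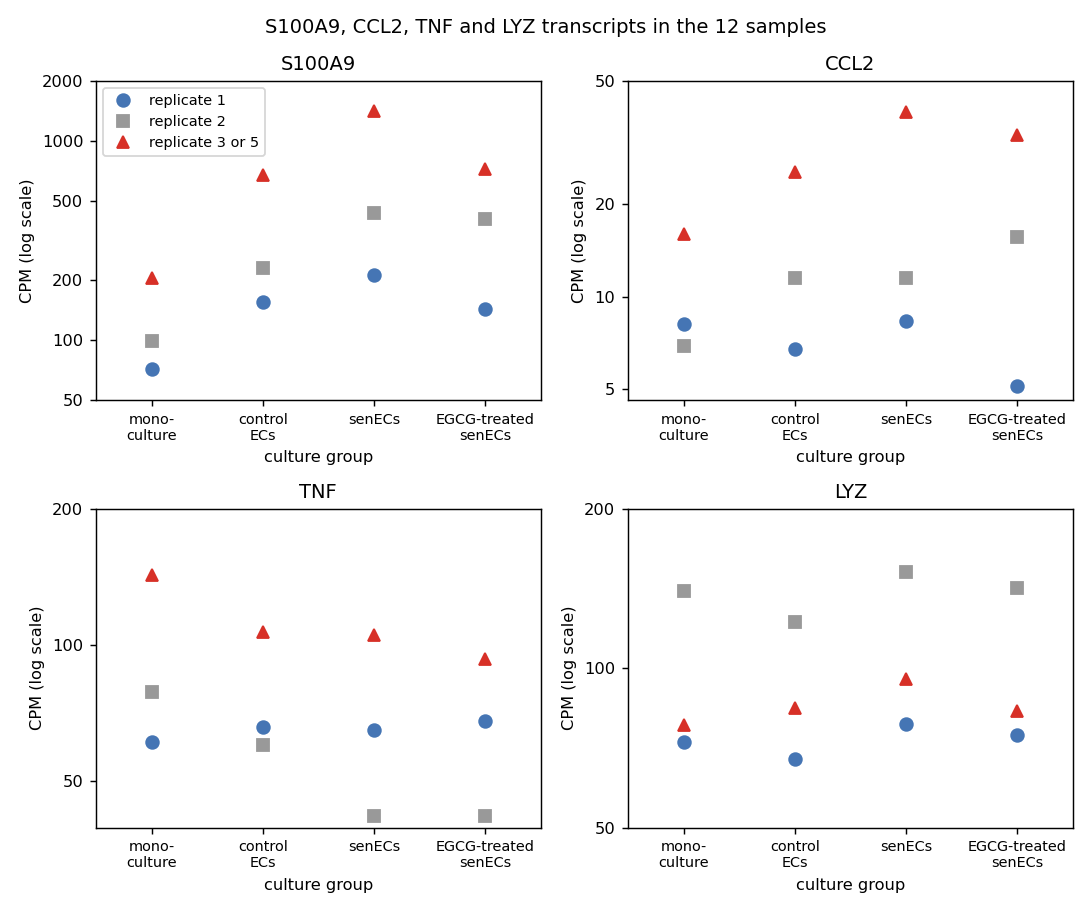
CPM of S100A9, CCL2, TNF and LYZ in the 12 libraries on log axes, by culture group; circles are replicate 1, squares replicate 2 and triangles replicate 3 or 5. For S100A9 the triangle lies at 206 CPM in mono-culture and 1420 CPM in senECs, TNF squares lie at 41.9 CPM in both senEC groups, and LYZ squares lie at 122 to 152 CPM above all other points.

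The counts of this last test ranged from 143 without mono-culture replicate 2 to 652 without senECs replicate 5, over the fits that left out 1 library each. LYZ, HSPA5, CALR, PDIA4 and ONECUT2 were called in all 12 of these fits. TNF, IL1B, IL1A and EGR3 were called in all 12 as well, whereas TRAF1 and CCL4L2 were lost without senECs replicate 2. NR4A3 and CXCL3 were lost without senECs replicate 2 or EGCG-treated senECs replicate 2, and EGR1 in 5 of the 12. For these genes of the LPS response the calls are a description and no evidence, since the comparison was chosen by such genes.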

How the data were processed

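RNA of LPS-treated THP1 cells was measured by bulk RNA sequencing in 12 libraries, 3 in each of 4 culture groups. The deposited table holds whole-number read counts per gene, which the authors made from reads aligned to hg38 with HISAT2 according to the submitters' processing notes. The counting program and its use of strand are not given in the sources used here. All 57169 distinct symbols of the table occur in GENCODE 29, from which gene coordinates were taken. Of 58735 rows, 23968 held no count, and 175 symbols stood on several rows (1741 rows). A further 4 columns of per-sample counts matched no labelled sample and were not used.

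Libraries were grouped by their titles. Genes whose counts summed to 10 or more over the 12 libraries were fitted with edgeR 4.0.16 (TMM scaling, quasi-likelihood test, R 4.3.3), with Benjamini-Hochberg adjustment over all genes tested and a threshold of 0.05. SE was the absolute log2 fold change over the square root of F. The comparison of numbers used 8 libraries with culture group as block, and the other 3 tests all 12. CPM were set on TMM-scaled totals, except that the sums of monocytic markers and of endothelial markers of narrow expression used raw totals. Within-group differences and principal components used log2(CPM + 2). The authors' counts were also fitted with DESeq2 1.42.0, other scalings, other filters and without each library. Fits were tested on simulated data. Tables were handled in pandas 2.3.3 and numpy 2.4.6 under Python 3.11.15, and figures drawn in matplotlib 3.10.9.

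The comparison, the 24 gene lists and the tests were chosen with earlier results of these data known. Genes are named as IL1B and CXCL8, preset members of each list, up to 10 per direction by fold change at a mean of 5 CPM or more, up to 2 per direction in a list, up to 5 per direction in each of the other tests at a mean of 1 CPM or more, and the 5 most like IL1B. A named gene outside this rule was chosen after its values were seen. That holds for S100A9, OSM, CXCL3, EGR3, FOSL2, PPP1R15A, PDE4B, C3, CD36, IFI44, IFI44L, FLT1, CD93, LYVE1, PDIA4, CALR, ABCA1 and IL36G. Total counts of 15439836 to 22092600 set the precision, and limits from counting cover counting error only.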

Additional observations from a re-analysis of the deposited data

Results flagged for a closer look

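Among 145 results compared over the 4 culture groups by Dixon's test, 9 had a group whose difference between replicate 3 or 5 and replicate 1 stood apart from the other three, where chance gives about 1 in 20. On the log2(CPM + 2) scale, senECs stood apart for LY96 at 0.84 (others 0.06 to 0.15), TNFAIP3 at 0.51 (0.66 to 0.70), SOD2 at 1.39 (1.58 to 1.61) and ACTB at 0.28 (0.14 to 0.16). EGCG-treated senECs stood apart for IRF1 at -0.20 (others 0.20 to 0.22) and EGR3 at 1.57 (0.71 to 0.84). Mono-culture stood apart for IRAK2 at 1.68 (others 1.12 to 1.21), CYP1B1 at -0.29 (0.57 to 0.67) and the median of the G2 and M phase list at -0.29 (-0.07 to -0.05).

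The difference between numbers was called unequal between the senEC co-cultures and the other groups, by edgeR's test of the difference itself, for S100A8 (0.83), S100A9 (0.73), XAGE1B (2.04), GPR89B (1.49), STAG3L1 (-2.0), MAP1A (-1.91), CAMKV (-1.83) and CBSL (-3.58). Of these, DESeq2 called only STAG3L1. Over the 12 fits that left out 1 library, XAGE1B and STAG3L1 were called in 12, MAP1A and GPR89B in 10, CAMKV in 9 and CBSL in 8. The difference was called unequal between the co-cultures and mono-culture for CCL2 (1.29), S100A9 (0.88), CYP1B1 (0.93), ABCA1 (0.78), STAG3L1 (-1.34), MAP1A (-1.71) and CAMKV (-1.75). Of these, DESeq2 called only CYP1B1, whose edgeR call was lost without EGCG-treated senECs replicate 1. In the first of these tests the number 5 cannot be told apart from the senEC groups that carry it.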

How the results depend on the processing

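The 2825 genes called between replicate 3 or 5 and replicate 1 became 1427 without the culture block and 409 with a minimum 2-fold difference. They became 1507 in the groups numbered 1 and 3 and 851 in those numbered 1 and 5. Without 1 library they ranged from 1725 to 2552, and each such fit in effect drops the pair of a culture group. The 12 calls of the test between senEC co-cultures and the other groups became 1 in DESeq2 and 0 in edgeR with at least 10 counts in every library or with filterByExpr (428 and 592 at unadjusted p under 0.05), and ranged from 8 to 192 without 1 library. The 17 calls of the test between co-cultures and mono-culture became 2 in DESeq2 and 0 with either filter in edgeR (377 and 482 at unadjusted p under 0.05), and ranged from 1 to 21. Without mono-culture replicate 1 or 3 that test could not be fitted. The 253 departures of replicate 2 from the midpoint became 129 with at least 10 counts in every library and 124 with filterByExpr, and ranged from 143 to 652. Both filters tested fewer genes, and the cause of the other differences was not tested. The mean within-group difference of IL1B was 2.17 with total counts only against 2.25, and 2.23 to 2.26 without 1 group. That of CXCL8 was 1.42 to 1.63 without 1 group. Total-count scaling turned the balance of the 2825 calls from 1654 higher and 1171 lower to 1159 higher and 2229 lower, while IL1B and CXCL8 stayed higher in replicate 3 or 5 under each setting named here. Medians of the heat shock, mitochondrial mRNA, nuclear-retained RNA and S phase lists, all near 0, took either sign. Total-count scaling moved the median of all genes tested from -0.03 to -0.11. No paired analysis was possible because the replicate number is the factor compared, and cannot also be a block. The libraries of a culture group form the block instead. Depth limits genes of a few counts, such as LY96 and IL6.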
